A study of Mus musculus with 6 samples.

Results

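The genes described here are 8 contractile isoforms of slow-twitch muscle fibres, Myh7, Myl2, Myl3, Tnnt1, Tnni1, Tnnc1, Tpm3 and Myoz2, chosen by name. All 8 are listed among the 14015 genes with a symbol in the deposited table. Bulk RNA sequencing of poly(A)-selected RNA was done on quadriceps muscle 7 days after volumetric muscle loss, an injury in which a block of muscle is cut out, with no implant in the defect. Groups were 3 WT mice, labelled B6, and 3 mice labelled GATA-1 mutant, the eosinophil-deficient ΔdblGATA strain, in which a GATA site of the Gata1 promoter is deleted. The study's methods describe female C57BL/6 WT mice of 10 to 12 weeks, while the age and strain background of the mutant mice were not given in the sources used here.

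One value per gene was used, the authors' mean log2 CPM (CPM, a gene's reads scaled to a fixed library total), which averages the libraries of their fit over both genotypes. It carries no error and no n, and the sources used here do not say whether further libraries entered that fit. The deposited values used here are not split by mouse, so depth is unknown, the genotypes are not compared, and the levels below are given as a description with no test. In bulk muscle, fewer fibres of a type and less RNA per fibre cannot be told apart.

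Skeletal muscle fibres are built from alternative versions of the same sarcomere proteins. Slow fibres contract slowly and resist fatigue, and they use the beta heavy chain of myosin with its own light chains and a slow set of troponin subunits, while fast fibres use other genes for the same positions. Several slow genes, among them Myl2, Myl3 and Tnnc1, are also the versions used by the ventricle of the heart, and Myh7 is used by the mouse ventricle before birth. Mouse quadriceps is known as a predominantly fast muscle.

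The slow and fast versions of a protein are related but differ in sequence, which bears on whether reads could be assigned to one or the other. An ungapped stretch of 60 coding bases of troponin C, the calcium-binding subunit, is shown for the slow gene Tnnc1 (GRCm38 chr14:31210103-31210162, plus strand, exon 3 of 6) and the fast gene Tnnc2 (chr2:164777988-164778047, minus strand, exon 3 of 6). Capitals mark the 14 bases at which they differ.
Tnnc1: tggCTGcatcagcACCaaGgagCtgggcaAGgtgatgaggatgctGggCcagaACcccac
Tnnc2: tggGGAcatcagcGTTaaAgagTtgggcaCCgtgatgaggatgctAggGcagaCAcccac

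A stretch of equal length near the start of the coding sequence is shown for the heavy chains, the motor proteins of the thick filament, with 16 differing bases in capitals. It lies in exon 4 of 41 of Myh7 (chr14:54992811-54992870, minus strand) and in exon 2 of 39 of Myh4 (chr11:67240630-67240689, plus strand), which encodes the fastest heavy chain.
Myh7: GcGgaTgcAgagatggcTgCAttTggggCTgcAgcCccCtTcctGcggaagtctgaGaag
Myh4: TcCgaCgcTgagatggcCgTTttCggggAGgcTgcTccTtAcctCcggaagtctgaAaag

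Across whole coding sequences, 78.2% of aligned bases were identical between Myh7 and Myh4, 71.2% between Tnnc1 and Tnnc2, 74.2% between Myl3 and Myl1, and 59.5% between Myoz2 and Myoz1. Outside the heavy chains, the longest run of identical bases between a slow coding sequence and an adult counterpart was 22 bases, between Tnni1 and Tnni2. Myh7 and Myh1 shared a run of 59 bases, longer than the 31-base words with which kallisto, the authors' read assignment tool, commonly works.

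The heavy chain gene Myh7 (chromosome 14 of GRCm38, 54970684 to 54994626) had a mean of 7.56 log2 CPM, a geometric mean of 189 CPM. Its transcript is long, at 6230 nt, and after division by transcript length its level was 4.92 log2 CPM per kb, the lowest of the 8 genes. The regulatory light chain gene Myl2 (chromosome 5, 122100951 to 122113472) and the essential light chain gene Myl3 (chromosome 9, 110741861 to 110769798), whose proteins stabilise the lever arm of myosin, had means of 5.98 and 6.34 log2 CPM, and levels of 6.15 and 6.43 log2 CPM per kb. Both light chains thus stood above the heavy chain to which they bind when lengths are taken into account.

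The troponin subunits, which switch the thin filament on when calcium binds, were the highest per kb. Tnnt1, the slow subunit that anchors the complex to tropomyosin (chromosome 7, 4504570 to 4516382), had a mean of 7.45 log2 CPM and a level of 7.37 log2 CPM per kb. The inhibitory subunit Tnni1 (chromosome 1, 135779434 to 135810989) followed, with a mean of 7.35 log2 CPM and a level of 7.14 log2 CPM per kb. The calcium-binding Tnnc1 (chromosome 14, 31208312 to 31211729) had a mean of 6.59 log2 CPM and a level of 7.06 log2 CPM per kb. All 3 subunits of the complex thus stood above the myosin, tropomyosin and Z-disc genes per kb of the longest transcript, an order that other lengths changed. Tpm3 passed Tnnc1 with coding length and both Tnnc1 and Tnni1 with the mean length over transcripts. Without length Tpm3 and Myh7 were above all 3 subunits and Myoz2 was above Tnnc1.

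Tpm3, the gene of slow alpha-tropomyosin (chromosome 3, 90072649 to 90100902), had a mean of 7.56 log2 CPM and a level of 6.40 log2 CPM per kb. The same gene also encodes cytoskeletal tropomyosins of many other cells, and a value per gene does not separate them. Myoz2, a protein of the Z-disc that binds the phosphatase calcineurin (chromosome 3, 123006206 to 123035015), had a mean of 6.70 log2 CPM and a level of 6.46 log2 CPM per kb. The whole set spanned 2.45 log2 units per kb, a range of 5.46-fold. With no spread between samples at hand, it is not known which neighbours in this order differ.

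Among the 13945 genes with a known transcript length, 7 of the 8 slow genes were in the top 10% per kb and Myh7 was at the 87.7th percentile. Among all 14015 genes, without division by length, 6 of the 8 were in the top 10%. The top 1% held 0 of the 8 and began at 8.44 log2 CPM per kb. The median of the slow genes was 6.45 and that of all genes 2.28 log2 CPM per kb. Without division by length the percentiles among all 14015 genes ran from 84.1 for Myl2 to 95.7 for Myh7 and Tpm3.

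**Figure D1:**
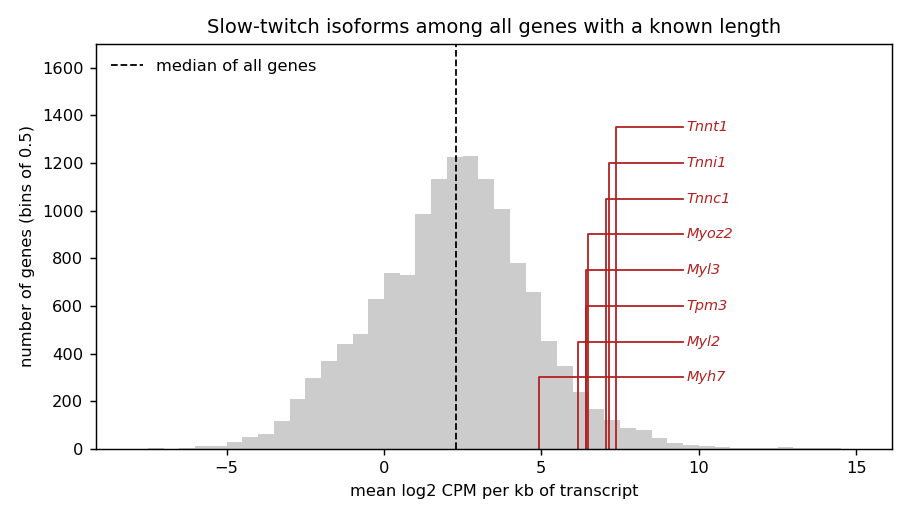
Distribution of mean log2 CPM per kb of transcript (x axis) as the number of genes in bins of 0.5 (y axis), with each slow-twitch isoform marked in red and the median of all genes as a dashed line. All 8 genes lie to the right of the median of 2.28, from Myh7 at 4.92 to Tnnt1 at 7.37.

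Most of the counterparts stood far higher. For each of the 8 slow genes the gene or genes holding the same position in the sarcomere were taken, giving 12 pairs, and the slow gene had the lower level per kb in 11 of them. The median difference of slow minus counterpart was -5.52 on the log2 scale per kb. Slow genes with several counterparts, Myh7, Tpm3 and Myoz2, entered this median repeatedly, and not every counterpart is restricted to fast fibres.

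Myh7 was below Myh4, Myh1 and Myh2, the genes of the heavy chains of type 2B, 2X and 2A fibres, by different amounts. The level of Myh4 was 141-fold that of Myh7 per kb, that of Myh1 33.4-fold and that of Myh2 8.20-fold. These folds depend on the transcript taken for Myh7, since with the mean length over transcripts the differences of Myh7 minus Myh4, Myh1 and Myh2 were -5.70, -3.99 and -2.01 on the log2 scale against -7.14, -5.06 and -3.04. Among these adult heavy chains the gap to Myh7 narrowed in the order in which the fibre types become less fast. Of the 31-base words of Myh2, 28.1% also occur in Myh1 and 17.0% in Myh4, both with higher values. Of those of Myh1, 19.2% occur in Myh4. The values of Myh2 and Myh1, and so this order, are therefore uncertain.

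For the light chains, Mylpf was 145-fold above Myl2 per kb and Myl1 was 84.5-fold above Myl3. The troponin pairs gave similar contrasts, with Tnnc2 at 98.7-fold the level of Tnnc1, Tnnt3 at 70.5-fold that of Tnnt1, and Tnni2 at 49.9-fold that of Tnni1. With coding length the difference of Tnni1 minus Tnni2 was -5.04 in place of -5.64 on the log2 scale. The smallest of the 3 fast excesses in troponin was thus that of the inhibitory subunit.

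Tpm1, the fast alpha-tropomyosin gene, was 42.5-fold above Tpm3, and Tpm2, a beta-tropomyosin found in fibres of both kinds, was 34.5-fold above it. A value per gene does not separate the 21 transcripts of Tpm1. The longest coding one, used here, has 735 coding bases, against 978 in the longest coding sequence of the gene. Myoz1, the fast Z-disc version, was 11.4-fold above Myoz2, a log2 difference of Myoz2 minus Myoz1 of -3.51 that was -4.42 with mean length. The exception was Myoz3, which was at 5.00 log2 CPM per kb against 6.46 for Myoz2, but its annotated transcript is long and without division by length the difference of Myoz2 minus Myoz3 turned to -0.075 on the log2 scale.

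**Figure D2:**
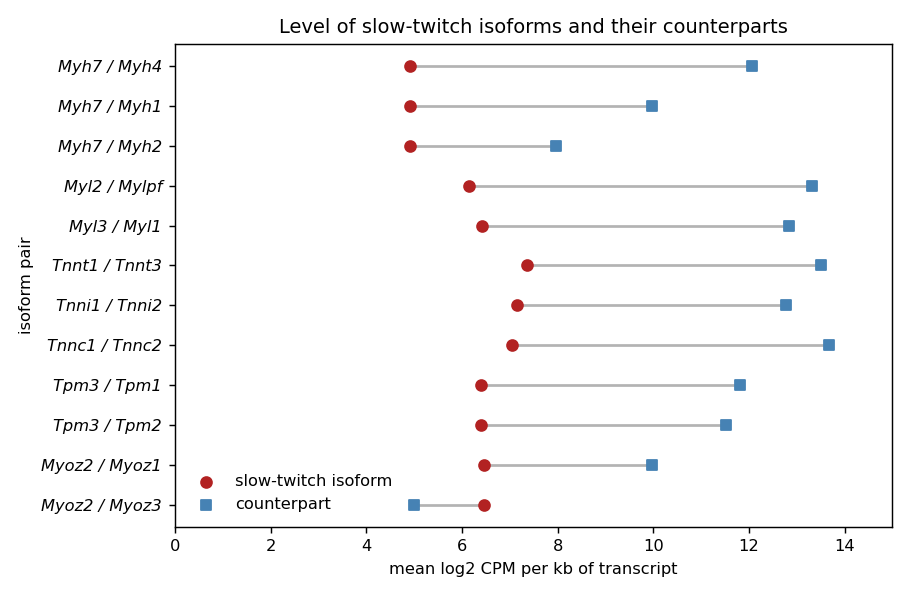
Mean log2 CPM per kb of transcript (x axis) for 12 isoform pairs (y axis), with the slow gene as a red circle and its counterpart as a blue square. The slow gene lies to the left in every pair but Myoz2 and Myoz3, and the widest gap, of 145-fold, is between Myl2 and Mylpf.

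Expressed as a share of the summed level per kb of its family, which adds geometric means and so is an approximation, Myh7 made up 0.544% of the adult heavy chains, or 1.37% with mean length. Adding the embryonic and neonatal heavy chains Myh3 and Myh8 gave 0.533%. The slow share was 0.687% for Myl2 and 1.17% for Myl3 among their light chains. It was 1.40% for Tnnt1, 1.97% for Tnni1 (2.96% with coding length), 1.00% for Tnnc1 and 1.28% for Tpm3. Myoz2 made up 7.86% of the myozenins, or 4.39% with mean length, above the share of any other slow gene in its family.

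Defining markers of other muscle types were examined because several slow genes are shared with the heart. Of 8 heart genes, Nppa, Nppb, Mybpc3, Myl7, Ryr2 and Nkx2-5 were not listed in the table. Myh6, which encodes the main heavy chain of the adult mouse heart, was listed at -3.46 mean log2 CPM and the cardiac troponin I gene Tnni3 at -0.72 mean log2 CPM. Myh7 was 2043-fold above Myh6 per kb and Tnni1 was 212-fold above Tnni3. The geometric means of Myh6 and Tnni3 were only 0.091 and 0.61 CPM, so these folds rest on very low values and are not precise. The cardiac and embryonic troponin T gene Tnnt2 was closer, with Tnnt1 at 2.11-fold its level, a log2 difference of 1.08 that was 1.74 with mean length.

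Genes of embryonic and regenerating fibres, listed 6 of 6, had a median of 6.28 log2 CPM per kb and ran from 2.88 for the fetal acetylcholine receptor subunit Chrng to 9.77 for cardiac alpha-actin, Actc1, which immature skeletal muscle also makes. Their median was below the 6.45 of the slow genes per kb. Without division by length it was above, at 7.67 against 7.03 log2 CPM. The neonatal heavy chain Myh8 was at 6.26 and the embryonic heavy chain Myh3 at 5.50 log2 CPM per kb, both above Myh7. With mean length Myh3, at 5.50, was below Myh7, at 6.37. Of the 31-base words of Myh1, Myh2 and Myh4, 17.6%, 19.8% and 15.7% also occur in Myh8, and 6.21% of those of Myh2 in Myh3. The values of Myh8 and Myh3 are therefore uncertain. Myl4, an embryonic essential light chain, was 1.88-fold above Myl3. All 14 fast fibre genes were higher per kb than the highest slow gene, except that with coding length Myh2, at 8.02, was below Tnni1, at 8.18. Of 5 genes found in every skeletal fibre, 3 were higher than the highest slow gene per kb and 5 without division by length or with mean length. Of 4 smooth muscle genes, 0 were under any of the 4 settings of length.

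**Figure D3:**
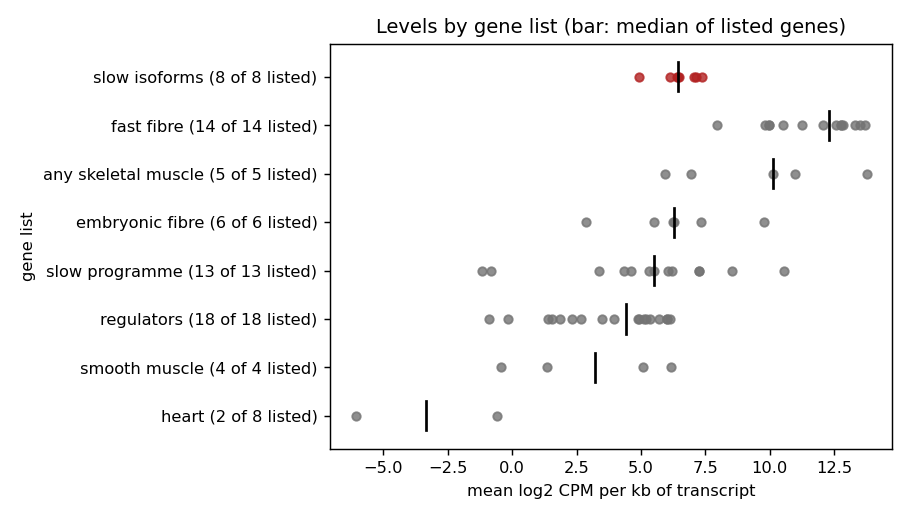
Mean log2 CPM per kb of transcript (x axis) for the listed genes of 8 lists (y axis), with a bar at each median. The slow isoforms, in red, have a median of 6.45, against 12.31 for fast fibre genes and 6.28 for genes of embryonic fibres, and 2 of 8 heart genes are listed. Without division by length the embryonic median is above the slow one.

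Other genes of the slow programme varied more than the contractile isoforms. All 13 were listed, with a median of 5.52 log2 CPM per kb and a range from -1.16 to 10.56. The oxygen store myoglobin, Mb, was highest at 10.56 and the slow myosin-binding protein gene Mybpc1 followed at 8.52 log2 CPM per kb, both above all 8 slow isoforms. The calcium pump of slow fibres, Atp2a2, was at 6.19, its inhibitor sarcolipin, Sln, at 7.26 and the slow calsequestrin Casq2 at 6.05 log2 CPM per kb. At the other end, phospholamban, Pln, which restrains the same pump, stood at -1.16 and Myh7b, a relative of Myh7, at -0.80 log2 CPM per kb. The short coding sequences of Pln and Sln make their levels depend on the length used: with coding length Pln was at 2.74 and Sln at 11.09 log2 CPM per kb, so that Myh7b was the lowest and Sln passed Mybpc1, at 8.74.

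Regulators of fibre type were all listed, 18 of 18, with a median of 4.43 log2 CPM per kb, and 0 of them exceeded the highest slow isoform per kb of the longest or the mean transcript. Without division by length Mef2c, Ppp3ca and Ppp3cb exceeded it, at 8.79, 8.25 and 7.64 log2 CPM against 7.56 for Tpm3. With coding length Ppp3r1 and Mef2c did, at 8.48 and 8.25 log2 CPM per kb against 8.18 for Tnni1. Calcineurin, the phosphatase whose signalling favours the slow state, was represented by Ppp3cb at 5.71 and Ppp3r1 at 5.99 log2 CPM per kb of the longest transcript, with Ppp3ca marginally above both. Its transcription factor Nfatc1 was at 2.33. Sox6, which represses slow genes in fast fibres, was the lowest regulator at -0.90 log2 CPM per kb, and Prox1, a homeobox factor that favours the slow state, was at -0.16. Mef2c, a transcription factor of muscle genes, was the highest at 6.14 per kb of the longest transcript.

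How far a value belongs to the gene it is listed under differed among the 8 genes. The share of 31-base words of the longest coding transcript that also occur in transcripts of another gene was 0 for Myl3, Tnnt1, Tnni1, Tnnc1 and Myoz2, and 4.31% for Myl2. It was 38.6% for Myh7 and 70.4% for Tpm3. All shared words of Tpm3 occur in Tpm3-rs7, a related gene that is not listed in the table, so the value of Tpm3 is uncertain. Among the counterparts, 67.6% of the words of Tnnc2 occur in Ube2c, listed at 3.42 log2 CPM. For Myl1, 28.4% of the words occur in Mylf-ps, which is not listed, and for Myoz3 4.26% occur in other genes. From 30.4% for Myh4 to 44.9% for Myh1 of the words of the fast heavy chains occur in other genes, most often in one another and in Myh8.

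Of the words of Myh7, 31.7% occur in its neighbour Myh6, 6.15% in Gm31251 and 5.77% in Mhrt, an antisense transcript of the same locus. Gm31251 and Mhrt are not listed. The identical runs of 59 bases with Myh1 and 56 bases with Myh4 hold a smaller number of shared words, with genes that were far higher. Whether reads were assigned by strand is not given in the sources used here. Read pairs lying wholly within the stretch that Mhrt and Myh7 share therefore cannot be told apart here. Myh6 itself was near the bottom of the table, with 0.193% of genes below it. The coding sequences of Myh7 and Myh6 were 91.8% identical. Their longest identical run, 245 bases, is shown because read pairs lying wholly within it cannot be assigned to one gene by sequence. It spans coding bases 4240 to 4484 of Myh7, in exons 32 and 33 of 41 (GRCm38 chr14:54974947-54975347, minus strand, intron removed), and no base is capitalised as none differ.
Myh7 and Myh6: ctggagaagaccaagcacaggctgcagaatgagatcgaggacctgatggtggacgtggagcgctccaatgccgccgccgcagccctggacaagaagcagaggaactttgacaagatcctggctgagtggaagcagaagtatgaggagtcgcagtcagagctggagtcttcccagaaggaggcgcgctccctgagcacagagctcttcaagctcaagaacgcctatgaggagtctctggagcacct

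**Figure D4:**
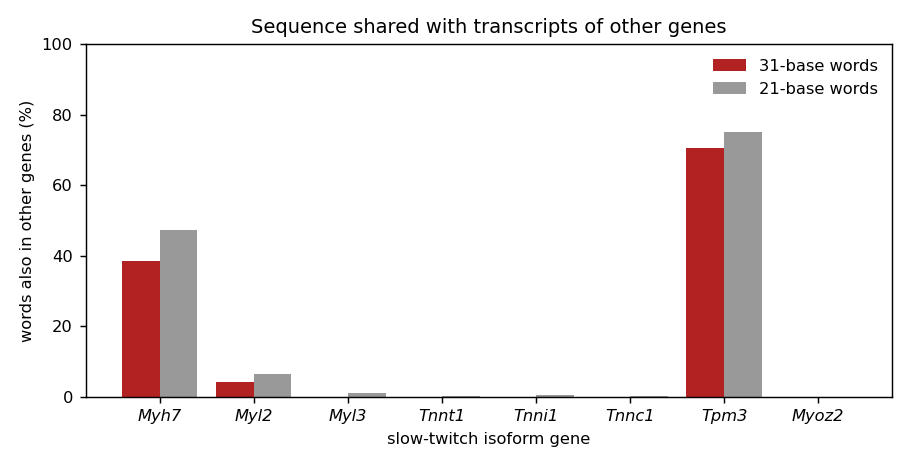
Percent of the 31-base (red) and 21-base (grey) words of each slow gene's longest coding transcript that occur in other genes (y axis, 0 to 100%), for the 8 genes (x axis). Only Myh7 and Tpm3 stand above 10%, at 38.6% and 70.4% for 31-base words.

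In the RefSeq promoter windows of GRCm38.p6, from 250 bases before to 50 after a start, all 8 slow genes were found. The letters CATTCC, the core that TEAD factors bind, were present on either strand for Myh7, Myl3 and Tnnc1, and in 16.6% of all 27025 genes. The E-box form CACCTG was present for Myh7, Myl3, Tnnt1 and Tnni1, and in 22.6% of all genes. TATAAA was present on either strand anywhere in the window for Myl2 and Tnnt1, and in 15.7% of all genes. Within the 50 bases before the start, on the given strand only, it was present for Tnnt1 alone of the slow genes, and in 3.15% of all genes. Of the 12 fast or other counterparts, 8 had a window, and CATTCC was present in 4 of these 8, CACCTG in 1 and TATAAA in 4. Within the 50 bases before the start, TATAAA was present in 2 of these 8, Myh1 and Myh4. None of the 3 strings contains another, and 0 of them were in the windows of all 8 genes.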

How the data were processed

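RNA of quadriceps muscle was sequenced in 3 WT and 3 GATA-1 mutant mice. Per the study's methods, kallisto pseudo-aligned the paired-end reads, transcript estimates were collapsed to genes, edgeR gave CPM and TMM scaling, and the authors' filter asked for CPM over 1 in 3 or more libraries. The submitters' processing notes name GRCm39 (mm39), and versions of kallisto and of the transcript index are not given in the sources used here. The deposited log2 values used are the mean log2 CPM of each gene from the authors' limma fit. That filter could not be checked from means, of which 1198 are below 0. The other columns hold the authors' own genotype comparison (log2 fold change, moderated t, p-values before and after adjustment, and log-odds) and were not used. No column holds the values of a single mouse, so the limma fit planned for such values was not made. Of 14016 rows, 1 has no symbol and was left out.

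Gene models came from GENCODE M21 (GRCm38): 13458 current symbols and 487 older ones were found there, giving a transcript length for 99.5% of genes. A level per kb is the mean log2 CPM minus log2 of the length in kb of the longest coding transcript, or of the longest transcript where none is coding. Percentiles are the percent of genes below a value. Word sharing was counted on both strands against all GENCODE transcripts, and coding sequences were aligned globally with Biopython 1.88. Protein identity, also planned, was replaced by identity of coding bases. The word count and the percentile were tested on simulated data. Genes named are the 8 slow genes, their counterparts and fixed lists. Tpm3-rs7, Gm31251, Ube2c, Mylf-ps and Mhrt were named after their values were seen. Genes and lists were chosen with earlier results of these data known.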

Additional observations from a re-analysis of the deposited data

How the results depend on the processing

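No paired analysis was possible because no values per mouse were used, and for the same reason the genotype fit, leaving out each mouse and its filter on low values were not run. The median percentile of the 8 slow genes, 92.9% by mean log2 CPM without length, was 92.7% among protein-coding genes and 91.6% among genes with a mean of at least 1 log2 CPM. The median slow minus counterpart difference of -5.52 became -5.43 without division by length, -5.33 with coding length and -5.43 with the mean length over transcripts, and 11 of the 12 pairs kept their sign throughout. Myoz2 minus Myoz3 reversed, to -0.075 without division by length and -0.18 with coding length. Myh3 minus Myh7, 0.58 per kb, reversed to -0.87 with the mean length, while Myh8 minus Myh7 did not reverse. Counts of listed genes above the highest slow gene were compared under the same lengths, chosen after seeing the data. For regulators, 0 became 3 without length and 2 with coding length. For genes of embryonic fibres, 1 became 3 without length, and their median passed that of the slow genes, at 7.67 against 7.03 log2 CPM. The order of the 8 slow genes depends on the length used: 8, 5 and 6 of them took another rank without division by length, with coding length and with the mean length. Myh7 was the lowest under the 3 settings that use a length, and second highest without one. The median slow share of a family, 1.23%, became 1.07%, 1.12% and 1.45% under the same 3 alternatives, which for the shares were chosen after seeing the data. The median percent of shared words was 0 with 31-base words and 0.811% with 21-base words. Depth was unknown, so no precision can be set for any level.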
